A study of Rattus norvegicus with 12 samples.

Results

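The genes of the proteasome, its activators, its inhibitor and its assembly chaperones were followed in hepatocytes taken from rat livers at rising intervals after the death of the donor. Members were the probe sets whose single gene symbol began with Psma, Psmb, Psmc, Psmd, Psme, Psmf or Psmg and a digit, without Psmc3ip. The rule took 59 probe sets of 45 genes out of 31042 probe sets that were not controls. One of these genes, Psme3ip1, encodes a partner of an activator and is no subunit itself. Another 6 probe sets carry a proteasome symbol beside other genes and were no members, which leaves Psmb6 and Psme3 without a member probe set.

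All animals were rats of the strain that the labels give as Fischer 334, with no genetic change or drug named, and their ages are not given. Controls were hepatocytes from heart-beating donors, and the other groups came from donors dead for 4 h, 16 h or 30 h. Each group held 3 arrays, 1 for each animal, so n = 3 in every group. Cells were freed from the liver by collagenase perfusion and went to RNA extraction without culture, and the arrays give log2 signals per probe set that were normalized between arrays.

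The proteasome is the large protease that destroys proteins tagged with ubiquitin. Its core is a barrel of alpha and beta rings, with the cutting sites on the inner face of the beta rings, and a regulatory particle on its end binds the tagged protein, removes the ubiquitin, and unfolds and feeds the chain through a ring of ATPases. Other caps (the activators encoded by Psme1, Psme2, Psme3 and Psme4) can open the same gate, and interferon exchanges the 3 cutting subunits for Psmb8, Psmb9 and Psmb10, which are used in making peptides for antigen presentation. In many cells the subunit genes are raised together by the transcription factor Nfe2l1 when proteasomes are blocked. In hepatocytes the proteasome shares the turnover of proteins with autophagy.

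The labelled cell type was checked against its markers: 9 hepatocyte markers were measured, and their mean log2 signal was 12.41 to 12.54 in heart-beating donors and 12.13 to 12.32 at 30 h, with Alb near the top of the scale in both. RNA quality moved with time after death. As a measure of it, the log2 signal of the 5' Gapdh control probe set was taken from that of the 3' one. Heart-beating donors gave 0.39 ± 0.08 (SD, n = 3), and donors dead for 4 h gave 0.38 ± 0.10. The value was 1.05 ± 0.20 after 16 h and reached 1.97 ± 0.29 after 30 h. Against heart-beating donors, a two-sided exact permutation test gave p = 1 for the 4 h group and p = 0.1, the smallest that 3 arrays against 3 allow, for each later group. Taken likewise from the Actb control probe sets, the difference set only the 30 h arrays (2.87 ± 0.11) apart from controls (1.85 ± 0.05). Its means were 1.71 ± 0.15 for the 4 h arrays and 2.21 ± 0.33 for the 16 h arrays. The 16 h range, 1.89 to 2.54, overlapped the control range, 1.80 to 1.90. For Actb the same permutation test gave p = 0.2 for 4 h, p = 0.2 for 16 h and p = 0.1 for 30 h. Arrays of a group correlated at 0.991 to 0.997. Animal 3 at 4 h and animal 1 at 30 h stood apart in the members: the median of the 59 probe sets, each set against its heart-beating mean, was -0.23 in the first (-0.10 and 0.01 in the other 4 h animals) and -0.43 in the second (-0.15 and -0.14 in the other 30 h animals).

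Since the subunit genes are known to share regulators, the bases before their starts are shown for some of the genes whose values follow. RefSeq windows of 300 bases (build GRCr8, 250 bases before the start and 50 after) were at hand for 41 of the 45 genes, and Psma7, Psmd6, Psmd12 and Psmd14 had none. The core of the antioxidant response element, TGACNNNGC on either strand, is the site that Nfe2l1 and Nfe2l2 bind. It lay in 7 of 41 member windows (17.1%) and in 12.1% of all 33469 windows. Sequences run 5' to 3' along the gene's strand, with the match in capitals (in Psma3 and Psme4 it is the reverse complement of the core) and the distance counted from the match's nearer end. In Psmb2 the first base of the core is also the last base of a CCAAT box.
Psma3 (chr6:95219712-95219748, plus strand, 4 bases before the start): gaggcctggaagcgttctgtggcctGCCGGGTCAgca
Psmb2 (chr5:144254965-144255023, plus strand, 60 bases before the start): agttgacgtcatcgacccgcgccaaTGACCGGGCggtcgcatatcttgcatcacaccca
Psmb5 (chr15:32047406-32047464, minus strand, 52 bases before the start): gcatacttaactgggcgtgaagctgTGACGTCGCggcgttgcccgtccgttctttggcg
Psmd1 (chr9:94157781-94157839, plus strand, 157 bases before the start): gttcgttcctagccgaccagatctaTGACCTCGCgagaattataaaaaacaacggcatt
Psmd9 (chr12:39018308-39018366, minus strand, 69 bases before the start): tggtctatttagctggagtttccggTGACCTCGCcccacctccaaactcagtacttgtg
Psme4 (chr14:108706563-108706621, plus strand, 47 bases before the start): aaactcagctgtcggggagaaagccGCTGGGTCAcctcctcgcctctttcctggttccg

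The core of the interferon response element is read by interferon regulatory factors. On either strand it lay in 7 of 41 member windows (17.1%) and in 3.92% of all windows. It is shown for Psmb10 and Psme2, known targets of interferon, and for Psmd7, whose probe sets moved in opposite directions. In Psmd7 the capitals are its reverse complement.
Psmb10 (chr19:50743331-50743390, minus strand, 64 bases before the start): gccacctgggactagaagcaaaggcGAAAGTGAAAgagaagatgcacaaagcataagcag
Psmb10 (chr19:50743293-50743334, minus strand, 8 bases before the start): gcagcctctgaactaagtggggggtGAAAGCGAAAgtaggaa
Psme2 (chr15:33052770-33052829, minus strand, 44 bases before the start): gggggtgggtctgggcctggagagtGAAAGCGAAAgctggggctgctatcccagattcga
Psmd7 (chr19:52411348-52411407, minus strand, 57 bases before the start): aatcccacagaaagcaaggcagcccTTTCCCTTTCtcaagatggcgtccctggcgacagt

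The CCAAT box is bound by the factor NF-Y. Among member windows 21 of 41 (51.2%) held it on either strand, against 37.5% of all windows. It is shown for Psma5, Psmd13 and Psmb1, which fell at 30 h. The box also lay in the windows of Psma3, Psmd7 and Psmf1, called higher in their brightest probe sets, and of genes not called. Psma5 has another CCAAT box further from the start, and in Psmd13 and Psmb1 the match is the reverse complement.
Psma5 (chr2:198584439-198584493, plus strand, 37 bases before the start): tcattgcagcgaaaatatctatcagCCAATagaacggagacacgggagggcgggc
Psmd13 (chr1:205394127-205394181, plus strand, 92 bases before the start): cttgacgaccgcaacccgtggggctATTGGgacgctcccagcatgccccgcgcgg
Psmb1 (chr1:65134978-65135020, minus strand, 233 bases before the start): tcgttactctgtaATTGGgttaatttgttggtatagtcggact

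The Stat dimer site, TTCNNNGAA, lay in 4 of 41 windows (9.76%) and in 8.87% of all windows. All matches are descriptions of letters and not of binding. At 30 h against heart-beating donors, 3 of the 7 genes with the antioxidant core fell, 2 rose and 2 were not called. Of the 7 with the interferon core, 2 fell, 1 rose and 4 were not called. Of the 21 with a CCAAT box, 11 fell, 3 rose and 7 were not called. Of all 45 member genes 22 fell and 4 rose (10.5% and 12.5% of all genes), and nothing is read from the counts by motif.

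At 4 h after death no proteasome gene passed the test against heart-beating donors. Of the 59 probe sets, 0 were called lower and 0 higher (limma, Benjamini-Hochberg adjusted p under 0.05), where 0.0129% of all 31042 probe sets were called lower and 0.00966% higher. At an unadjusted p under 0.05 there were 5 of 59 members, all lower, where 1637 of all 31042 probe sets passed in either direction. The median log2 difference was -0.10, with 47 of 59 below 0, against 49.3% of all probe sets. No other setting called a member at 4 h, and without animal 3 of that group the median was -0.04.

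The lowest differences at 4 h were those of 1 probe set of Psme4 and of Psma3. The brightest probe set of Psme4, which encodes a large single-chain activator, read 8.83, 8.76 and 8.73 in heart-beating donors and 8.36, 8.57 and 8.33 at 4 h, a difference of -0.35 (SE 0.10, adjusted p = 0.736). Psma3, an alpha subunit, read 8.12, 8.01 and 8.10 against 7.73, 7.91 and 7.72, a difference of -0.29 (SE 0.08, adjusted p = 0.756). In both genes the 4 h animals lay below all heart-beating animals, yet neither was called.

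At 16 h a few members had changed, and the largest falls belonged to the subunit that strips ubiquitin. Psmd14, Psmd8, Psma6 and the dim second probe set of Psmd9 fell, and the brightest probe set of Psme4 rose. In all, 6 of 59 probe sets were called lower and 1 higher, where 1.49% of all probe sets were called lower and 3.18% higher. Counted once per gene by the brightest probe set, 3 of 45 genes fell and 1 rose, where 1.3% of 14217 genes fell and 4.3% rose. In the upper 50% of probe sets by mean signal, which holds 57 of the 59 members, 2.09% were called lower and 5.92% higher. The median difference of the members was -0.13, against -0.02 over all probe sets, and 48 of 59 lay below 0, against 57.8%. All 3 animals lay below all 3 heart-beating animals in 25 members and above them in 3, where 15.7% and 13% of all probe sets did so. In bulk samples such as these, fewer cells of a type and less RNA per cell cannot be told apart.

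Psmd14 encodes the deubiquitinase of the regulatory particle, which cuts the ubiquitin chain off a protein as it enters. Its brightest probe set (1383429_at) read 9.78, 9.55 and 9.55 in heart-beating donors, 9.39, 9.63 and 9.20 at 4 h, 8.93, 8.86 and 9.06 at 16 h, and 8.22, 8.69 and 8.98 at 30 h. The second (1386073_at) read 8.94, 8.87 and 8.96, then 8.75, 8.92 and 8.64, then 8.02, 8.04 and 8.33, then 7.34, 7.65 and 7.86. The third (1394082_at) read 8.31, 8.02 and 8.23, then 7.99, 8.26 and 7.75, then 7.42, 6.86 and 7.31, then 5.61, 6.10 and 6.53. In each of them every animal at 16 h and at 30 h lay below every heart-beating animal, and animal 1 was the lowest at 30 h.

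At 16 h the 3 probe sets of Psmd14 fell by 0.68 (SE 0.16, adjusted p = 0.0292), 0.79 (SE 0.12, adjusted p = 0.00419) and 1.00 (SE 0.21, adjusted p = 0.016) in log2 units. Psmd8, a subunit of the lid of the regulatory particle, read 9.32, 9.35 and 9.37 in heart-beating donors, 9.08, 9.36 and 8.97 at 4 h, and 8.74, 8.59 and 8.68 at 16 h. It fell by 0.68 at 16 h (SE 0.16, adjusted p = 0.0287), with no overlap between the groups. Psma6, an alpha subunit, read 11.13, 11.21 and 11.25 in heart-beating donors, 11.14, 11.30 and 11.04 at 4 h, and 10.86, 10.73 and 10.79 at 16 h. It fell by 0.40 (SE 0.09, adjusted p = 0.0186), again without overlap.

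Psmd9, which helps to assemble the base of the regulatory particle, fell in its second probe set (1397686_at), by 0.32 (SE 0.07, adjusted p = 0.0231), while its brightest probe set differed by -0.45 (SE 0.13, adjusted p = 0.0764). The second is dim, with a mean log2 signal of 5.76, where the array medians ran from 5.83 to 5.90. The rise was that of the brightest probe set of Psme4, from 8.83, 8.76 and 8.73 to 9.11, 9.20 and 9.14, a difference of 0.37 (SE 0.10, adjusted p = 0.0481). All 16 h animals lay above the heart-beating ones. The count of 6 falls moved with single libraries: it was 3, 2 and 1 without heart-beating animal 1, 2 or 3, 3 and 1 without 16 h animal 1 or 2, and 9 without 30 h animal 1. The rise of Psme4 was lost without any 1 of the heart-beating or 16 h animals, without 4 h animal 1 or 3, and without 30 h animal 3, and it became 2 rises among members without 30 h animal 1. Of the 7 calls, that of the second Psmd14 probe set was kept in every setting but the RNA quality covariate described further on.

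At 30 h the proteasome genes were mostly lower, with a small number higher. Falls reached every class of the particle except the activators and the inhibitor when each gene is read by its brightest probe set. They included subunits of the core barrel (Psma5, Psmb1), ATPases (Psmc6), the regulatory particle (Psmd14, Psmd8, Psmd13) and all 4 assembly chaperones with Psmg symbols. Psmd7, Psme4, Psmf1 and Psma3 rose in their brightest probe sets. Of the 59 probe sets 26 were called lower, 5 higher and 28 in neither direction, where 9.36% of all probe sets were called lower and 10.4% higher. Counted once per gene by the brightest probe set, 22 of 45 genes fell, 4 rose and 19 were not called, where 10.5% of 14217 genes fell and 12.5% rose. The median log2 difference of the members was -0.23, against 0.01 over all probe sets, and 44 of 59 lay below 0, against 47.7%. Without 30 h animal 1 that median was -0.125, where the median at 16 h was -0.13.

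**Figure D1:**
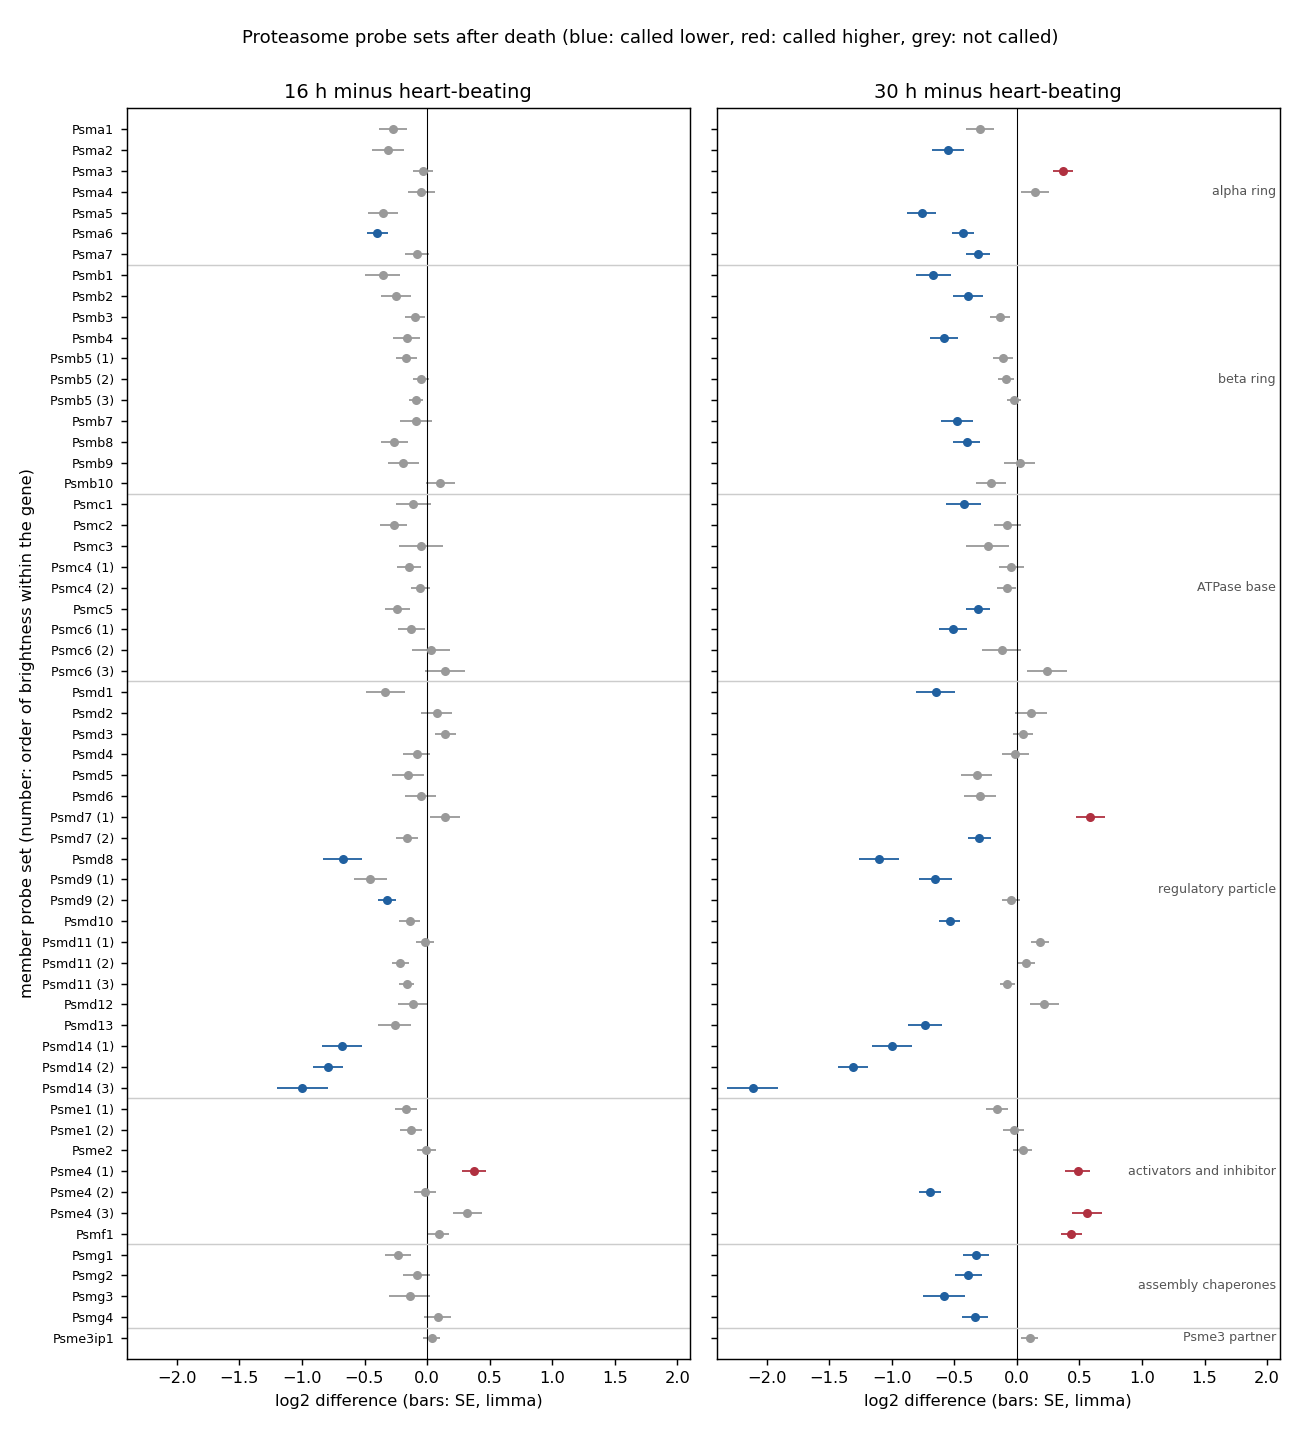
Log2 difference from heart-beating donors at 16 h (left) and 30 h (right) for each of the 59 member probe sets, grouped by their place in the particle, with the standard error of the limma fit as bars and n = 3 animals per group. At 30 h 26 points are called lower (blue) and 5 higher (red), and Psmd8 and the 3 Psmd14 probe sets lie furthest to the left.

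In the upper 50% of probe sets by mean signal, 13.7% were called lower at 30 h and 16.5% higher. All 3 animals at 30 h lay below all heart-beating animals in 30 members and above them in 5, where 16.6% and 16.9% of all probe sets did so. The count of 26 falls was 15 without heart-beating animal 3 and 16 without 30 h animal 1, and leaving out 4 h animal 3 and 30 h animal 1 together gave 17 falls and 7 rises.

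The RNA quality of the 30 h arrays moved with these values. With that Gapdh measure added to the model, 0 of 31042 probe sets passed at 30 h (6130 without it). An unadjusted p under 0.05 was found in 15 members, rises and falls counted together. The share over all probe sets was not counted, so nothing is read from the 15. In that fit the median SE of a member was 0.344 in place of 0.11, and the log2 difference changed its sign in 24 of the 26 falls and in 0 of the 5 rises. The median of the members then was 0.39. Over all called probe sets 36% changed sign. At 16 h the same model called 70 probe sets (1449 without the measure) and 0 of the 7 members called before, of which 1, Psmd8, changed sign. Time after death and the Gapdh difference rise together in these arrays, and their parts in the falls cannot be told apart. With 1 mean per group in the model, the slope on the Gapdh measure rests on differences between animals within groups. That slope was then carried over the gap from 0.39 in heart-beating donors to 1.97 at 30 h. Nothing is read from the sign changes.

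**Figure D2:**
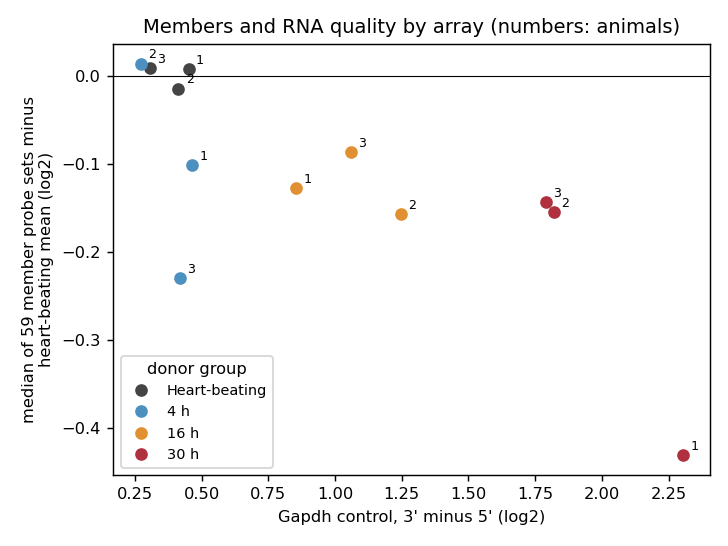
Median of the 59 member probe sets, each relative to its heart-beating mean (log2, vertical), against the Gapdh 3' minus 5' control difference (log2, horizontal), 1 point per array with the animal's number. The arrays of heart-beating and 4 h donors lie at Gapdh differences of 0.27 to 0.46, and 30 h animal 1 has both the highest Gapdh difference, 2.30, and the lowest median, -0.43.

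Within 30 h, animal 1 had the highest Gapdh difference (2.30, against 1.82 and 1.79) but the lowest Actb difference (2.75, against 2.92 and 2.95). Animal 3 at 4 h, the array with the other low median, had a Gapdh difference of 0.42, inside the 0.31 to 0.45 of heart-beating donors. The part of RNA quality in single members was not tested beyond the covariate.

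**Figure D3:**
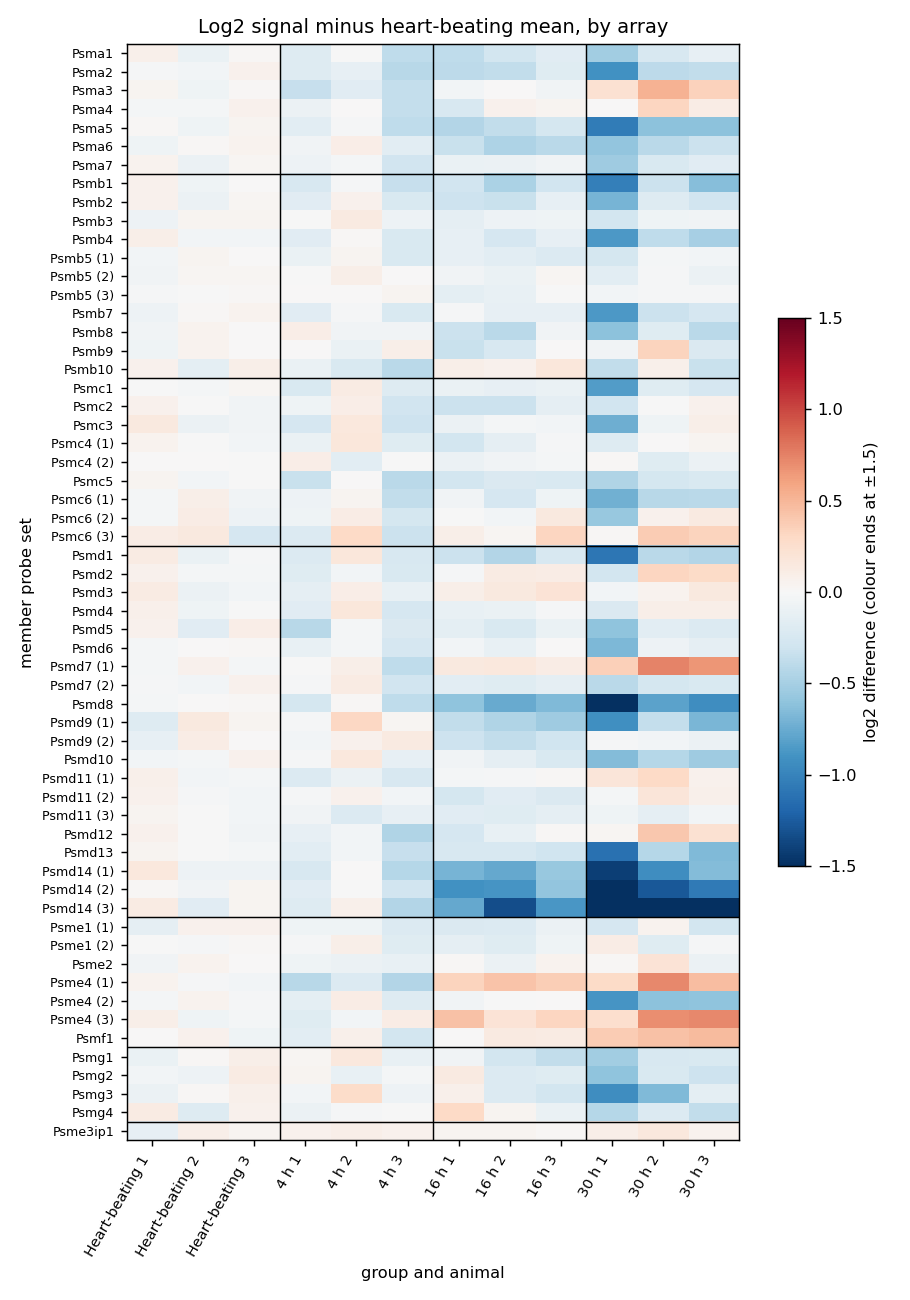
Log2 signal of each member probe set in each of the 12 arrays minus its heart-beating mean, with the groups side by side and colours that end at ±1.5. The columns of 30 h animal 1 and 4 h animal 3 are lower than those of their groups, with member medians of -0.43 and -0.23, and Psmd8 and the Psmd14 probe sets have the lowest mean differences at 30 h.

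The alpha ring forms the gate of the barrel. Of its 7 probe sets, 1 for each of Psma1 to Psma7, 4 fell at 30 h and 1 rose, with a median difference of -0.31. Over all probe sets 9.36% fell and 10.4% rose, which is the background for this class and those that follow. Psma5 read 10.42, 10.34 and 10.45 in heart-beating donors, 10.25, 10.39 and 10.02 at 4 h, 9.96, 10.04 and 10.14 at 16 h, and 9.35, 9.79 and 9.79 at 30 h. All animals at 16 h and at 30 h lay below the heart-beating ones, and the fall at 30 h was 0.76 (SE 0.12, adjusted p = 0.000725), or 1.69-fold.

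Psma2, Psma6 and Psma7 fell by 0.55 (SE 0.13, adjusted p = 0.00841), 0.43 (SE 0.09, adjusted p = 0.00326) and 0.31 (SE 0.09, adjusted p = 0.0341). The call of Psma7 was lost without heart-beating animal 1 or 3 or 30 h animal 1. Psma1, at -0.30 (SE 0.11, adjusted p = 0.0853), and Psma4, at 0.15 (SE 0.11, adjusted p = 0.403), were not called.

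Psma3 moved the other way. It read 8.12, 8.01 and 8.10 in heart-beating donors, 7.73, 7.91 and 7.72 at 4 h, 8.04, 8.08 and 8.02 at 16 h, and 8.30, 8.60 and 8.42 at 30 h. The 30 h animals were the highest of all 12, and the rise was 0.37 (SE 0.08, adjusted p = 0.0066). A probe set shared by Psma3 and a gene named Psma3l, which was no member, fell by 0.90 (SE 0.14, adjusted p = 0.000651), so the direction for Psma3 depends on the probe set.

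The beta ring holds the cutting sites. Of its 11 probe sets 5 fell at 30 h and 0 rose, with a median of -0.21. Psmb1, a subunit without a cutting site, read 10.69, 10.55 and 10.62 in heart-beating donors, 10.38, 10.60 and 10.28 at 4 h, 10.33, 10.14 and 10.33 at 16 h, and 9.59, 10.30 and 9.98 at 30 h. The 30 h animals lay below the heart-beating ones with animal 1 the lowest, and the fall was 0.67 (SE 0.14, adjusted p = 0.00514). Psmb4 and Psmb2, also without cutting sites, fell by 0.58 (SE 0.11, adjusted p = 0.00236) and 0.39 (SE 0.12, adjusted p = 0.0385), and Psmb3 differed by -0.13 (SE 0.08, adjusted p = 0.277). The call of Psmb2 was lost without heart-beating animal 1, 2 or 3, without 16 h animal 2 and without 30 h animal 1.

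Among the standard cutting subunits Psmb7 was called lower and Psmb5 was not called, and the difference between them was not tested. Psmb7, which cuts after basic residues, read 10.03, 10.12 and 10.16 in heart-beating donors, 9.93, 10.09 and 9.88 at 4 h, 10.08, 9.98 and 9.98 at 16 h, and 9.24, 9.78 and 9.85 at 30 h. It fell by 0.48 (SE 0.13, adjusted p = 0.0175), with animal 1 the lowest at 30 h, and the call was lost without heart-beating animal 3. Psmb5, which cuts after hydrophobic residues, read 10.82, 10.91 and 10.87 in its brightest probe set in heart-beating donors, 10.77, 10.91 and 10.64 at 4 h, 10.74, 10.71 and 10.66 at 16 h, and 10.60, 10.84 and 10.82 at 30 h. Heart-beating and 30 h animals overlapped, and the difference was -0.11 (SE 0.08, adjusted p = 0.379). The other 2 probe sets of Psmb5 differed by -0.09 and -0.02 and were not called. A probe set shared by Psmb6, the remaining cutting subunit, and Psmb6l1 was no member and fell by 0.65 (SE 0.12, adjusted p = 0.00179).

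Among the subunits that interferon induces, Psmb8 was called. It read 10.34, 10.44 and 10.39 in heart-beating donors, 10.49, 10.34 and 10.34 at 4 h, 10.07, 9.98 and 10.34 at 16 h, and 9.78, 10.21 and 9.98 at 30 h, a fall of 0.40 (SE 0.11, adjusted p = 0.021) without overlap. The call was lost without heart-beating animal 2 or 3 or 30 h animal 1. Psmb9 read 9.83, 9.94 and 9.90 in heart-beating donors, 9.89, 9.79 and 9.98 at 4 h, 9.56, 9.65 and 9.89 at 16 h, and 9.84, 10.22 and 9.67 at 30 h. Its 30 h animals lay on both sides of the heart-beating ones, with a difference of 0.02 (SE 0.12, adjusted p = 0.932).

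Psmb10 read 8.24, 8.03 and 8.27 in heart-beating donors, 8.08, 7.95 and 7.78 at 4 h, 8.27, 8.24 and 8.35 at 16 h, and 7.81, 8.26 and 7.85 at 30 h, a difference of -0.21 (SE 0.12, adjusted p = 0.25) with overlap. The mean of Psmb8, Psmb9 and Psmb10 minus that of Psmb5 and Psmb7, each relative to heart-beating donors, ranged from -0.04 to 0.04 in those donors, from -0.14 to 0.14 after 4 h, from -0.11 to 0.21 after 16 h and from -0.17 to 0.25 after 30 h. These ranges overlap in all 4 groups, and no test was made of them.

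The ATPase ring unfolds the protein. Of 9 probe sets for Psmc1 to Psmc6, 3 fell at 30 h and 0 rose, with a median of -0.12. Psmc6 fell in its brightest probe set (1384323_at), from 10.32, 10.43 and 10.29 in heart-beating donors and 10.27, 10.39 and 9.98 at 4 h, through 10.29, 10.09 and 10.28 at 16 h, to 9.63, 9.93 and 9.94 at 30 h. The fall was 0.51 (SE 0.11, adjusted p = 0.00548), without overlap between 30 h and heart-beating donors. Psmc1 and Psmc5 fell by 0.42 (SE 0.14, adjusted p = 0.0494) and 0.31 (SE 0.10, adjusted p = 0.0383). Both calls were lost without any 1 heart-beating animal, without 16 h animal 2 or 3 and without 30 h animal 1. Psmc1 was also lost without 4 h animal 1 or 3 or 16 h animal 1, and Psmc5 without 30 h animal 2. Psmc2, Psmc3 and Psmc4, at -0.08, -0.23 and -0.04, were not called.

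The regulatory particle without its ATPases binds ubiquitin and cuts it off. Of its 20 probe sets for 14 genes, 9 fell at 30 h and 1 rose, with a median of -0.30. By their symbols, Psmd5, Psmd9 and Psmd10, which help to assemble the base, are counted here too. The 3 probe sets of Psmd14, with the values given above, fell by 1.00 (SE 0.16, adjusted p = 0.000822), and differed by -1.31 (SE 0.12, adjusted p = 2.1e-05) and -2.11 (SE 0.21, adjusted p = 2.84e-05). These are falls of 2.00-fold, 2.48-fold and 4.32-fold, which with that of Psmd8 were the 4 largest among the members.

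Psmd8 read 7.78, 8.54 and 8.41 at 30 h against 9.32, 9.35 and 9.37 in heart-beating donors. It fell by 1.10 (SE 0.16, adjusted p = 0.00041), or 2.15-fold, and animal 1 was lowest. Psmd13, another lid subunit, read 8.41, 8.36 and 8.34 in heart-beating donors, 8.21, 8.33 and 8.03 at 4 h, 8.13, 8.13 and 8.07 at 16 h, and 7.25, 7.94 and 7.71 at 30 h. Both later groups lay below the heart-beating one, with a fall of 0.73 at 30 h (SE 0.13, adjusted p = 0.00207). Psmd1, the scaffold of the base, and Psmd10, a chaperone of base assembly, fell by 0.65 (SE 0.16, adjusted p = 0.011) and 0.54 (SE 0.08, adjusted p = 0.000784). These falls of Psmd14, Psmd8, Psmd13, Psmd1 and Psmd10 were kept without any single array.

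**Figure D4:**
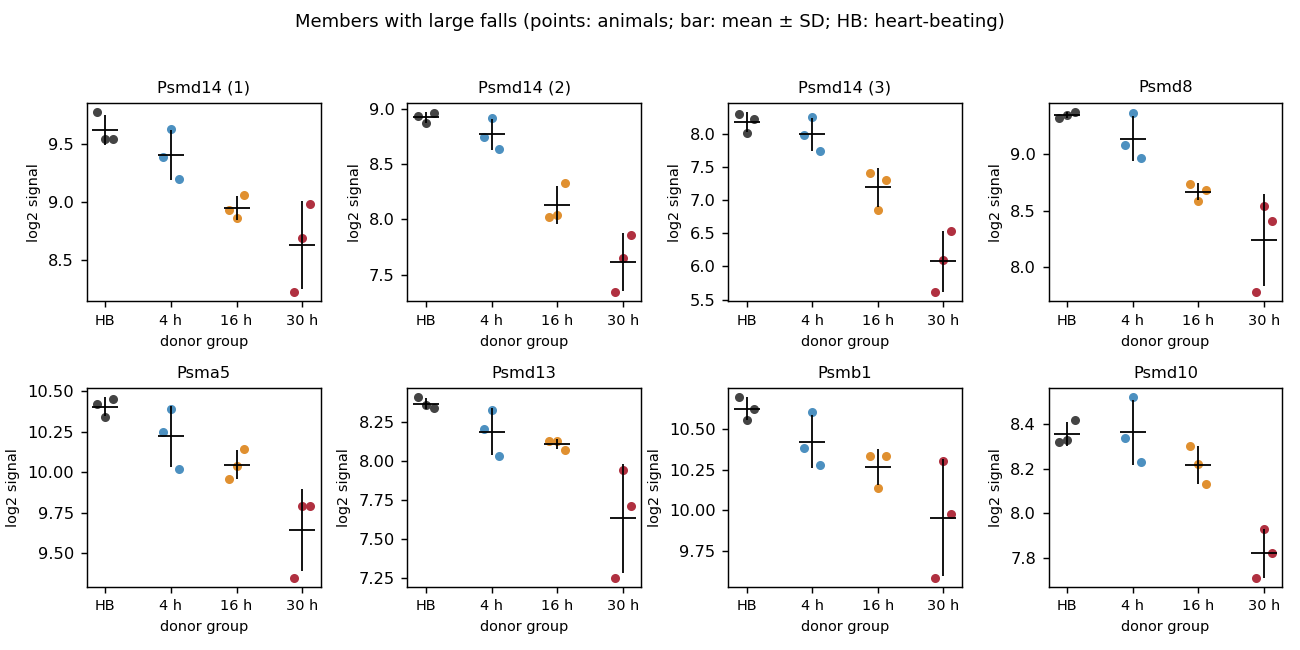
Log2 signal of Psmd14 (3 probe sets), Psmd8, Psma5, Psmd13, Psmb1 and Psmd10 in heart-beating donors (HB) and at 4, 16 and 30 h, with a point for each animal and a bar for the mean ± SD. In every panel the 30 h animals lie below all heart-beating animals, and the third probe set of Psmd14 drops furthest, to between 5.61 and 6.53.

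Several subunits of the regulatory particle were not called. Psmd2 and Psmd4, which receive ubiquitin or its shuttles, differed by 0.12 (SE 0.13, adjusted p = 0.588) and -0.01 (SE 0.11, adjusted p = 0.961). The lid subunits Psmd3, Psmd6 and Psmd12 differed by 0.05, -0.30 and 0.22. Psmd11, also of the lid, differed by 0.18, 0.08 and -0.08 in its 3 probe sets, and Psmd5, a base chaperone, by -0.32 (SE 0.12, adjusted p = 0.0914).

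Of the 7 probe sets of the activators and the inhibitor, 1 fell and 3 rose at 30 h, with a median of 0.05. The shares over all probe sets were 9.36% and 10.4%. The rise of Psmf1 aside, these calls all came from probe sets of Psme4, which moved in opposite directions. No test between the classes was made. Psme1 and Psme2 form the cap that interferon induces. The brightest probe set of Psme1 read 10.87, 11.06 and 11.07 in heart-beating donors, 10.94, 10.93 and 10.80 at 4 h, 10.78, 10.80 and 10.91 at 16 h, and 10.75, 11.05 and 10.73 at 30 h, a difference of -0.16 (SE 0.09, adjusted p = 0.261). Psme2 read 9.77, 9.88 and 9.83 in heart-beating donors, 9.76, 9.74 and 9.72 at 4 h, 9.84, 9.74 and 9.88 at 16 h, and 9.85, 10.03 and 9.74 at 30 h, a difference of 0.05 (SE 0.08, adjusted p = 0.726). In both genes the 30 h animals overlapped the heart-beating ones, and the second probe set of Psme1 differed by -0.02.

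Psmf1, which encodes an inhibitor of the core, read 9.19, 9.24 and 9.11 in heart-beating donors, 9.02, 9.26 and 8.90 at 4 h, 9.19, 9.31 and 9.30 at 16 h, and 9.56, 9.62 and 9.65 at 30 h. The 30 h animals were the highest of the 12 and lay close together. The rise was 0.43 (SE 0.08, adjusted p = 0.00306), or 1.35-fold, and was kept without any single array. Psme3ip1, the partner of Psme3, differed by 0.10 (SE 0.07, adjusted p = 0.317).

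The assembly chaperones Psmg1, Psmg2, Psmg3 and Psmg4 build the alpha ring. All 4 fell at 30 h, by 0.33, 0.39, 0.58 and 0.34, with adjusted p of 0.0422, 0.0253, 0.025 and 0.0428 and a median of -0.36. The 30 h animals lay below the heart-beating ones in each. Psmg3 had the widest spread, with 7.26, 7.36 and 7.42 in heart-beating donors and 6.41, 6.68 and 7.20 at 30 h. All 4 calls were lost without heart-beating animal 3 and without 30 h animal 1. Psmg1 was also lost without heart-beating animal 1 or 2, 4 h animal 1 or 16 h animal 2, Psmg2 without heart-beating animal 1, and Psmg3 without heart-beating animal 2 or 30 h animal 2. Psmg4 was also lost without heart-beating animal 1, any 4 h animal, 16 h animal 2 or 30 h animal 3.

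Probe sets of the same gene did not always move together, and in Psme4 and Psmd7 they moved in opposite directions. Among the 9 member genes with more than 1 probe set, the difference between the 2 brightest changed in 1 at 16 h (13.7% of 4525 genes) and in 5 at 30 h (35% of 4525 genes). They were Psme4, Psmd7, Psmd9, Psmc6 and Psmd14, and they did not include Psmb5, Psmc4, Psmd11 and Psme1.

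In Psme4 the brightest probe set (1368817_at) read 9.06, 9.49 and 9.24 at 30 h, above its heart-beating values given before, a rise of 0.49 (SE 0.10, adjusted p = 0.00376). The second (1387345_at) read 8.20, 8.28 and 8.21 in heart-beating donors, 8.08, 8.34 and 8.04 at 4 h, 8.18, 8.22 and 8.23 at 16 h, and 7.35, 7.62 and 7.63 at 30 h, a fall of 0.69 (SE 0.09, adjusted p = 0.000212). The third (1368818_at) read 7.32, 7.16 and 7.20 in heart-beating donors, 7.05, 7.18 and 7.34 at 4 h, 7.67, 7.43 and 7.55 at 16 h, and 7.48, 7.92 and 7.95 at 30 h, a rise of 0.56 (SE 0.12, adjusted p = 0.00531). No probe set overlapped between 30 h and heart-beating donors, in either direction. The brightest gained 1.18 log2 units on the second (SE 0.10, adjusted p = 3.28e-08) at 30 h, and 0.39 (SE 0.10, adjusted p = 0.0115) at 16 h.

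Psmd7, the lid subunit that pairs with Psmd14, rose in its brightest probe set (1389245_at), from 9.18, 9.28 and 9.18 in heart-beating donors through 9.21, 9.30 and 8.83 at 4 h and 9.36, 9.37 and 9.32 at 16 h to 9.57, 9.96 and 9.87 at 30 h. The rise was 0.59 (SE 0.12, adjusted p = 0.00354). Its second probe set (1379322_at) read 8.10, 8.08 and 8.19, then 8.11, 8.25 and 7.84, then 7.96, 7.94 and 7.99, then 7.72, 7.86 and 7.89, a fall of 0.30 (SE 0.09, adjusted p = 0.0348). Neither overlapped between 30 h and heart-beating donors, and the gap between them changed by 0.89 (SE 0.10, adjusted p = 1.32e-06). The fall of the second was lost without any 1 heart-beating animal and without 30 h animal 1 or 2.

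In the other 3 genes the probe sets differed in size or in call. The brightest probe set of Psmd9 (1368184_at) read 8.37, 8.71 and 8.61 in heart-beating donors, 8.54, 8.87 and 8.59 at 4 h, 8.19, 8.11 and 8.03 at 16 h, and 7.64, 8.21 and 7.88 at 30 h, a fall of 0.65 (SE 0.13, adjusted p = 0.00439). The second read 5.71, 5.95 and 5.84, then 5.79, 5.90 and 5.97, then 5.52, 5.47 and 5.54, then 5.82, 5.79 and 5.75, which is -0.05 at 30 h and not called. It was thus lower at 16 h than at any other time. The gap between these probe sets changed by -0.60 (SE 0.13, adjusted p = 0.00132).

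The second probe set of Psmc6 (1379850_at) read 9.93, 10.07 and 9.88 in heart-beating donors, 9.89, 10.07 and 9.70 at 4 h, 9.95, 9.92 and 10.11 at 16 h, and 9.39, 10.03 and 10.10 at 30 h, a difference of -0.12 (SE 0.15, adjusted p = 0.651). The gap to the brightest changed by -0.39 (SE 0.11, adjusted p = 0.00843). The dimmest probe set of Psmc6 (1382385_at) differed by 0.24 (SE 0.16, adjusted p = 0.327), opposite in sign to the brightest and not called. In Psmd14 both of the brightest fell, and the gap changed by 0.31 (SE 0.10, adjusted p = 0.026). Where these probe sets lie on their transcripts was not used here, and RNA quality moved with time as given above.

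**Figure D5:**
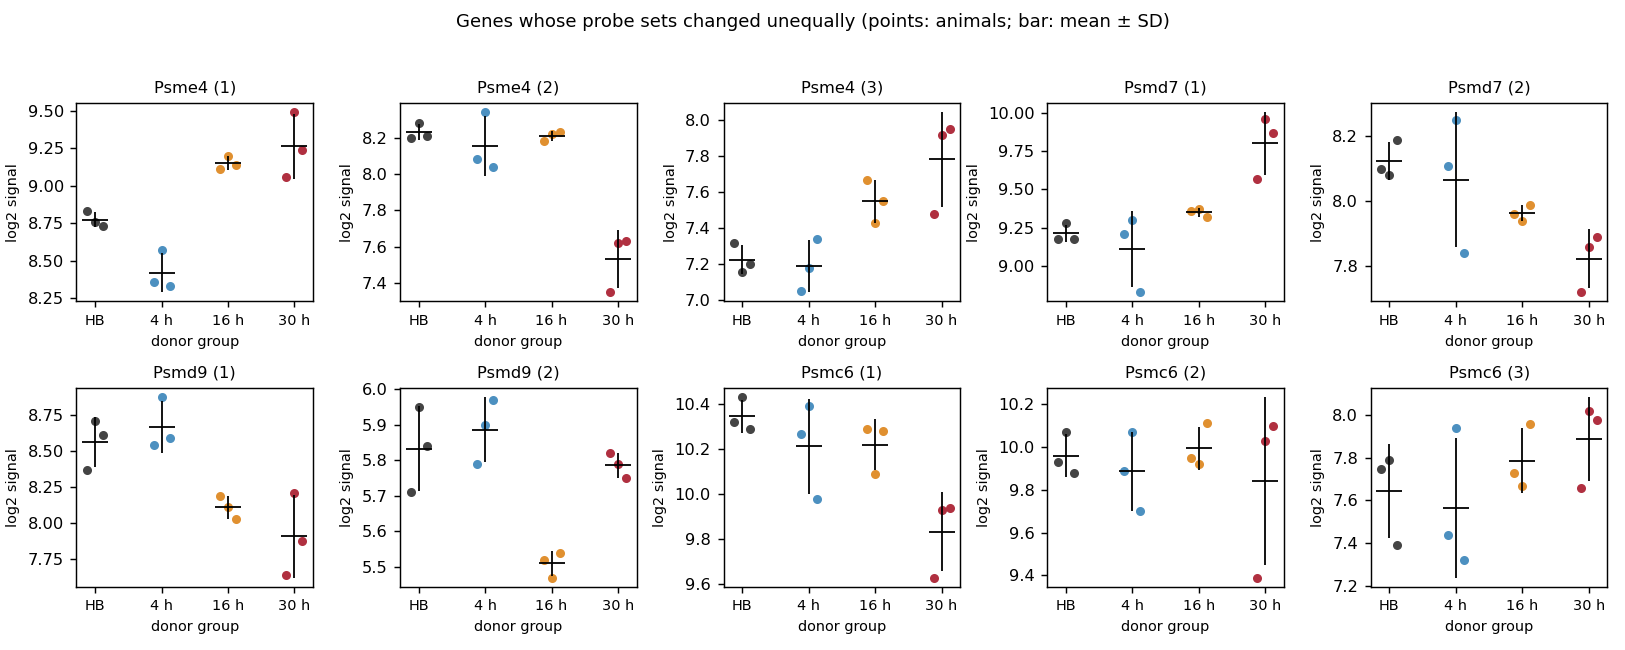
Log2 signal of each probe set of Psme4, Psmd7, Psmd9 and Psmc6 by donor group, with a point for each animal and a bar for the mean ± SD. Probe sets of Psme4 and Psmd7 go up and down at 30 h within the same gene, with differences of 0.49 and -0.69 in the 2 brightest of Psme4 and 0.59 and -0.30 in those of Psmd7.

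Between the times after death, the changes were spread over both intervals. From 4 h to 16 h, 5 of 59 members fell (2.52% of all probe sets) and 1 rose (5.31%): 2 probe sets of Psmd14 (1386073_at and 1394082_at), both probe sets of Psmd9, and Psma6 fell, and the brightest of Psme4 rose by 0.73 (SE 0.10, adjusted p = 0.00109), a call kept in every setting. The 16 h animals of that probe set (9.11, 9.20 and 9.14) all lay above those of 4 h (8.36, 8.57 and 8.33). The count of falls was 2 without 4 h animal 2 or 16 h animal 2 or 3, 3 without 4 h animal 1 and 8 without 30 h animal 1, and the count of rises was 2 without 4 h animal 2 and 3 without 30 h animal 1 or 2.

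From 16 h to 30 h, 9 of 59 members fell (5.95% of all probe sets) and 5 rose (4.29%). The median difference of the members was -0.09, and 0.004 without 30 h animal 1. The largest were the third probe set of Psmd14, which fell by a further 1.11 (SE 0.21, adjusted p = 0.00515), and the second of Psme4, which fell by 0.68 (SE 0.09, adjusted p = 0.000791). Psmd13, Psmb4, Psma5, Psmd10, Psmc6, Psmg4 and the second probe set of Psmd14 also fell, by 0.39 to 0.52. Psmd7, Psma3, Psmf1, the second probe set of Psmd11 and that of Psmd9 rose by 0.27 to 0.45. The falls numbered 3 without 16 h animal 1 or 30 h animal 1, 4 without 16 h animal 3 and 6 without heart-beating animal 1 or 3, 4 h animal 1 or 16 h animal 2, and the rises 1 without 16 h animal 1 and 3 without 16 h animal 2 or 3.

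Spread between animals was larger in the members than in the arrays at large at 2 of the times. The median SD of a member was 0.06 in heart-beating donors and 0.07 in the 16 h group, where it was 0.08 over all probe sets in both. It was 0.15 in the 4 h group (0.08 over all) and 0.19 in the 30 h group (0.12 over all). At 4 h and 30 h the members of 1 animal were shifted together, as the medians given for animal 3 and animal 1 show. The shift at 30 h reached the core, the ATPases, the regulatory particle and the chaperones of animal 1, whose class medians were -0.53, -0.37, -0.45, -0.50 and -0.56 for alpha ring, beta ring, ATPases, regulatory particle and chaperones. Its activators and inhibitor had a median of 0.12.

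Markers of other cells in the preparation also moved. Of 13 markers of Kupffer cells, the macrophages of the liver, 6 fell at 16 h and 8 at 30 h, and 0 rose. Their mean log2 signal lay between 8.38 and 8.43 in heart-beating donors and between 8.36 and 8.72 in the 4 h group. It lay in the range 7.84 to 8.08 after 16 h and 7.62 to 7.87 after 30 h, and Adgre1 was then below the array median in both. Of 4 erythroid markers 3 rose at 16 h and 4 at 30 h, with mean signals of 8.51 to 8.78 in heart-beating donors, 8.50 to 10.16 after 4 h and 9.96 to 10.69 after 30 h. Of 7 stellate cell markers 2 rose at 16 h and 4 at 30 h. Of 6 markers of liver endothelial cells 3 rose at 16 h and 1 at 30 h. Over all genes by the brightest probe set, 1.3% fell and 4.3% rose at 16 h, and 10.5% fell and 12.5% rose at 30 h.

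Of 11 lymphocyte markers, 5 lay below the array median in every group (Cd3d, Cd3g, Cd4, Cd79b and Gzmb), and the others did not. Their mean log2 signal was 5.97 to 6.08 in heart-beating donors and 5.99 to 6.16 at 30 h. Of the 11, 1 marker, Prf1, rose at 30 h, where 12.5% of all genes rose. Macrophages and lymphocytes express the interferon-induced subunits Psmb8, Psmb9 and Psmb10. Of 9 hepatocyte markers 2 fell at 30 h (Asgr1 and Apoa1) and 1 rose (Hnf4a), where 10.5% of all genes fell and 12.5% rose. The part of any of these cells in the proteasome values was not tested.

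Proteasome parts that the symbol rule leaves out moved both ways. Of 12 measured, 1 fell and 1 rose at 16 h, and 4 fell and 3 rose at 30 h (brightest probe set per gene, adjusted over 31042 probe sets as above). Over all genes 1.3% fell and 4.3% rose at 16 h, and 10.5% fell and 12.5% rose at 30 h, which is the background for this list and the next 3. Pomp, which matures the core barrel, fell by 0.56 (11.44 ± 0.05 to 10.89 ± 0.23, SD, adjusted p = 0.00111). Akirin2, which carries proteasomes into the nucleus, fell by 0.68 (adjusted p = 0.000338). Ecpas, a proteasome-binding scaffold, rose by 0.85 (8.20 ± 0.06 to 9.05 ± 0.24, adjusted p = 0.000104), and Zfand2a, a stress-induced partner, rose by 0.56 (adjusted p = 0.00149).

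Among 17 measured ubiquitin-activating and conjugating enzymes and shuttles, 0 fell and 2 rose at 16 h, and 4 fell and 2 rose at 30 h. Bag6, a chaperone that hands clients to the proteasome, rose by 0.81 (6.84 ± 0.08 to 7.65 ± 0.18, adjusted p = 4.94e-05), and the shuttle Ubqln4 by 0.29 (adjusted p = 0.0269). The conjugating enzymes Ube2k and Ube2r2 fell by 0.55 (adjusted p = 0.00266) and 0.38 (adjusted p = 0.0313).

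Of 16 genes of the Nfe2l1 route and of p97, the segregase that pulls proteins out of membranes, 1 fell and 2 rose at 16 h, and 2 fell and 4 rose at 30 h. Ddi2, which rose at 16 h, stands in this list and the last. Syvn1, a ligase of the endoplasmic reticulum, and Faf2, a p97 adaptor, rose by 0.62 (adjusted p = 0.000259) and 0.61 (adjusted p = 0.00063) at 30 h. Faf1, another adaptor, and Nfe2l2, the oxidative stress factor, fell by 0.65 (adjusted p = 0.000886) and 0.84 (9.72 ± 0.21 to 8.88 ± 0.22, adjusted p = 0.00127). Nfe2l1, named here for its role after its value was seen, rose by 0.37 (7.99 ± 0.12 to 8.36 ± 0.08, adjusted p = 0.00565).

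Of 12 measured partners of the immunoproteasome in antigen presentation, 1 fell and 0 rose at 16 h, and 0 fell and 2 rose at 30 h. Nlrc5 and Irf1, regulators of class I genes, rose at 30 h by 0.58 (adjusted p = 0.00198) and 0.53 (adjusted p = 0.00781). Irf1 was also the gene that fell at 16 h, by 0.61 (adjusted p = 0.0139). B2m, the light chain of class I molecules, and Tap1, the peptide transporter whose gene lies between Psmb8 and Psmb9, differed by -0.15 (adjusted p = 0.104) and 0.29 (adjusted p = 0.202). Psmb8 was called lower at 30 h, a call that single arrays could end as given above. Its neighbours Tap1 and Tap2 (-0.10, adjusted p = 0.641) and Psmb9, which lies beyond Tap1, were not called. The differences between these genes were not tested.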

How the data were processed

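RNA of hepatocytes from 12 rats was read on Affymetrix arrays. The authors deposited a log2 signal for each probe set. The submitters' processing notes name RMA and limma, without versions or settings. RMA scales each array to the others, so a loss common to all transcripts is not seen. Values ran from log2 2.99 to 14.51, and the number of arrays limits the precision. Of 31099 probe sets, 57 controls were left out of the tests. Of the rest, 20826 carried 1 gene symbol in the platform table, 436 several and 9780 none.

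limma 3.58.1 (lmFit, eBayes) in R 4.3.3 fitted 1 mean per group to all 31042 probe sets (8 residual and 4.93 prior degrees of freedom). Calls needed a Benjamini-Hochberg adjusted p under 0.05 over all probe sets. In 4525 genes the same model was fitted to the brightest probe set minus the next. Fold changes are 2 to the power of the log2 difference. The fit was tested on simulated data with independent noise in each probe set. Arrays in which members shift together were not simulated. The members, lists, motifs and settings were chosen with earlier results of these data known.

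Array values were to be given for the 8 largest falls and rises at 30 h, up to 6 calls at 16 h, the cutting subunits, the activators and genes with unequal probe sets. Up to 4 genes per pathway list were named, those with the smallest p at 30 h. Psmb6 had no member probe set, so the balance of cutting subunits used Psmb5 and Psmb7. Alternatives were 3 further normalizations, a filter on dim probe sets, 2 ways to join probe sets, trend and robust settings, array weights, only the groups compared, a replicate block, the Gapdh covariate, and leaving out the 30 h arrays or each array. Leaving out 4 h animal 3 and 30 h animal 1 together was added after seeing the data.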

Additional observations from a re-analysis of the deposited data

Results flagged for a closer look

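A probe set outside the members gave a signal that the comparisons did not use. It carries the symbols of Psme3, an activator of the nuclear proteasome, of Aoc3 and of G6pc1, so its gene is not settled. It read 7.41, 7.53 and 7.33 in heart-beating donors and 8.10, 8.33 and 8.26 at 30 h, higher in 3 of 3 animals, a log2 difference of 0.80 (SE 0.09, limma adjusted p = 5.68e-05). The other 3 probe sets with these symbols differed by -1.97, -0.45 and -0.74 (limma adjusted p = 0.0166, 0.0107 and 0.195). The first and second of them were thus called lower, without overlap between 30 h and heart-beating donors. Which of the genes they measure was not tested.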

How the results depend on the processing

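The count of falls at 30 h (26) stayed within 1.5 times under all normalizations, filters and variance settings except the Gapdh covariate (0) and the joint removal of 4 h animal 3 and 30 h animal 1 (17). Rises at 30 h (5) became 2 with the mean of a gene's probe sets and 0 with the covariate. At 16 h falls (6) became 3 with the brightest probe set per gene, 12 with array weights, 13 with only the groups compared, 11 without the 30 h arrays and 0 with the covariate. Rises at 16 h (1) became 0 with median centring, the mean of probe sets, trend and robust settings or the covariate, and 2 with array weights, only the groups compared, no 30 h arrays or the joint removal. From 4 h to 16 h falls (5) became 9 with cyclic loess or array weights, 10 with quantile normalization, 2 with the brightest and 3 with the mean of probe sets, 8 without the 30 h arrays and 0 with the covariate, and rises (1) became 4 with array weights, only the groups compared, no 30 h arrays or the covariate and 2 with the joint removal. From 16 h to 30 h falls (9) became 3 with only the groups compared or the joint removal and 0 with the covariate, and rises (5) became 9 with quantile normalization, 3 with the brightest or the mean of probe sets or only the groups compared, and 0 with the covariate. Genes with unequal probe sets at 16 h (1) became 2 with cyclic loess, quantile normalization, the upper 50%, array weights, only the groups compared, no 30 h arrays or the joint removal, and 0 with the covariate. Those at 30 h (5) became 0 with the covariate. Joined probe sets and fewer arrays leave fewer values to call; the cause of the other shifts was not tested.

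Leaving out 1 array gave 0 calls at 4 h in all cases, 1 to 9 falls and 0 to 2 rises at 16 h, 15 to 26 falls and 5 to 6 rises at 30 h, 2 to 8 falls and 1 to 3 rises from 4 h to 16 h, 3 to 13 falls and 1 to 6 rises from 16 h to 30 h, and 0 to 2 and 4 to 5 genes with unequal probe sets at 16 h and 30 h.

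The animal number as a replicate block gave 6 falls and 1 rise at 16 h, 22 and 5 at 30 h, 4 and 1 from 4 h to 16 h, and 7 and 5 from 16 h to 30 h, with 1 and 5 genes of unequal probe sets. It ended 1, 4, 1 and 2 named calls in these comparisons. Of 18 same-numbered pairs, 2 had deviations that correlated over 0.1 (-0.27 to 0.11), and 1 of 12 arrays correlated best with its own number, so the numbers are no pairing.

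With the Gapdh covariate, none of the called differences at 30 h passed, and these turned positive: Psmb7 0.892, Psmb8 0.204, Psmc5 0.231, Psmd9 0.472, Psma6 0.321, Psmd1 0.928, Psmg1 0.658, Psmd13 0.433, Psma7 0.370, Psmg2 0.620, Psmg4 0.277, the second of Psmd7 0.209, Psmd14 0.378 (brightest) and 0.116 (dimmest), Psmc6 0.390, Psmd10 0.0499, Psma5 0.140, Psmg3 1.06, Psmd8 0.611, Psmb2 0.669, Psmc1 1.02, Psmb1 0.699, Psmb4 0.431 and Psma2 0.556. So did Psmd8 at 16 h (0.0431), the dimmest of Psmd14 from 4 h to 16 h (0.135) and, from 16 h to 30 h, Psmd13 0.204, Psmc6 0.138, Psmd14 0.0212 (second) and 0.179 (dimmest), Psma5 0.116 and Psmb4 0.170. The member median then was 0.391 at 30 h, 0.124 at 16 h, 0.261 from 4 h to 16 h and 0.338 from 16 h to 30 h. The slope behind these values rests on animals within groups, as given above, and nothing is read from their signs.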
